A study of Rattus norvegicus with 28 samples.

Results

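The 9 genes followed here encode neurotrophic factors and the receptors that bind them: the neurotrophins Bdnf and Ntf3 with the receptors Ntrk2 (TrkB), Ntrk3 (TrkC) and Ngfr (p75), the glial cell line-derived factor Gdnf with its co-receptor Gfra1 and the kinase Ret, and the ciliary factor Cntf. Members were the non-control probes whose gene name on the array equalled one of these symbols, and 17 of the 41012 probes met this rule. All 9 genes had at least 1 probe, with 4 for Ret, 3 for Ntrk2, a pair each for Bdnf, Gdnf and Gfra1, and a single probe for the remaining genes. The genes were chosen by their family and with the injury differences of these arrays in view, and the disagreement between the Ntrk2 probes was part of that choice. The Ntrk2 differences after injury are therefore given as a description without a test.

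RNA came from 1.5 cm of the thoracic spinal cord of adult female Sprague Dawley rats, spanning segments T6 to T10 and holding the epicentre, with the dura removed after saline perfusion. Each of 7 groups had 4 single-dye arrays. T0 animals had no contusion; the labels call them sham, whereas the methods of the study call them uninjured. T1, T2, T4 and T8 animals were taken 1, 2, 4 and 8 weeks after a severe contusion (250 kdyn) at the eighth thoracic level, termed spinal cord injury (SCI). T1_NPC animals received neural progenitor cells (NPC) right after the contusion and were taken at 1 week, and T2_NPC animals received the cells 1 week after the contusion and were taken at 2 weeks. The NPC were grown from injured adult rat spinal cord, and FK-506 (tacrolimus, an immunosuppressant, 1 mg/kg) was given from the day before transplantation to the end point. The study's methods name FK-506 in the care of all animals, with its start set by the transplantation, and give injured controls an injection of cell-free medium. The transplanted cells are rat cells, so their RNA and the host's cannot be told apart on these arrays.

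Neurotrophins act through Trk receptor kinases, which promote neuronal survival, process growth and synaptic plasticity, and through Ngfr, a receptor without kinase activity that binds all neurotrophins and their precursors. BDNF signals through TrkB and NT-3 mainly through TrkC. The gene for TrkB also gives truncated receptors that lack the kinase domain, which glia are known to express. GDNF binds GFRA1 on the membrane, and the complex activates the kinase RET. CNTF, found in astrocytes and Schwann cells, acts through CNTFR, LIFR and the shared subunit IL6ST.

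Before the results, a property of the deposit has to be stated. The value table and the scanner outputs did not agree about which sample an array came from: 12 of the 28 scanner outputs had the rank order of the value column of their own sample, and the other 16 had that of another sample's column (Spearman correlation 1 for the matched column, 0.993 at most for the next). The values below follow the columns of the value table. Under the samples that the scanner outputs were deposited with, limma called 0 of the 17 member probes in every comparison. Against T0, 1, 1, 5 and 3 of them had an unadjusted p under 0.05 at T1, T2, T4 and T8. Of all probes, 6.72%, 4.48%, 23.5% and 13.9% did so at the same times. With only the 12 undisputed arrays, 10 member probes were called against T0 at T2 and 10 at T8, against 8 and 12 with all 28 arrays. Of all 41012 probes, 14150 and 15876 were called with the undisputed arrays, against 16650 and 16603 with all arrays. Every member called against T0 with all arrays kept its sign with the undisputed arrays. These are part of the same 28 arrays, so agreement in sign is partly built in and does not settle the disputed samples. Of the 8 calls at T2, 7 were kept, and of the 12 at T8, 9 were kept. Only 1 T1 array and 1 T4 array are undisputed, and a fit takes the spread of a lone array from the other groups. The arrays lay on 7 slides scanned in 3 sessions. The time-course groups each spanned sessions 1 and 2, with a single T1 array and a single T4 array in session 1, so that session 1 values of T1 and T4 come from 1 array each and their calls assume that it varies like the other groups. By contrast, the T1_NPC arrays made up 1 slide and the T2_NPC arrays another, both read in session 3. Slide, session and transplantation therefore cannot be told apart. In the time course, the undisputed arrays are those of session 1, and every session 2 array is disputed. The fit of undisputed arrays and the fit within session 1 thus share their time-course arrays. Session 2 values rest on the samples named by the value table. Between 74.5% and 82.7% of spots were well above background per array, and no spot was saturated. Of the 13 cell type marker lists used below, none held a probe that stayed at background on all arrays, the lists for skeletal muscle and primary sensory neurons included. By the study's methods the 4 arrays of an injured group are 4 animals; T0 is not named there, but its arrays too are termed biological replicates.

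The probes that carry the main findings are 60 bases long, and the first 30 bases of each are shown 5′ to 3′ as printed on the array, with the place of the whole probe on the rat build rn4 (RGSC v3.4) that the scanner files name; no base is singled out, so none is in capitals. They are shown because probes of the same gene read different parts of its transcripts and did not all move alike.
Ntrk2 A_42_P538400, described as transcript variant 1 and matched to 1 RefSeq transcript, chr17:11495183-11495242, minus strand: aggacctttctgaggaggacacagaatgtt
Ntrk2 A_42_P631184, described as transcript variant 2 and matched to 1 RefSeq transcript, chr17:11680049-11680108, minus strand: cctttctgaaaaggtagtttatctttaggg
Ntrk2 A_44_P161121, described as transcript variant 1 and matched by the array annotation to 3 RefSeq transcripts, chr17:11754284-11754343, minus strand: atgaatccaagtacatctgtaccaaaatac
Bdnf A_44_P219026, transcript position 641, chr3_random:976345-976404, plus strand: ccaccaggtgagaagagtgatgaccatcct
Bdnf A_44_P437896, transcript position 3677, chr3_random:979381-979440, plus strand: ctgctatatgctaactttttgcagcttcat
Gdnf A_44_P365470, transcript position 114, chr2:57403890-57403949, plus strand: gcccgccggtaagaggcttctcgaagcgcc
Gdnf A_44_P500961, transcript position 514, chr2:57423845-57423904, plus strand: tacgacaaaatactaaaaaatctgtctcga
Gfra1 A_43_P11634, transcript position 3551, chr1:264614326-264614385, minus strand: cagtgggaagttccatgaagactcatacat
Gfra1 A_44_P107308, transcript position 1474, chr1:264616404-264617205, minus strand, aligned over 802 bases and so across an intron: gtgtcgggtagcacacacctctgtctttct
In the direction of transcription Ntrk2 probe A_44_P161121, called the common probe here because its 3 transcripts include those of the other probes, comes first, the variant 2 probe lies 74.2 kb further on, and the variant 1 probe another 185 kb beyond it. Exon and UTR annotation of this build was not used here.

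Values are log2 units of the quantile-normalized value table, spots of a probe averaged. A log2 difference of 1 is a doubling of signal. A probe was called when limma's p-value, adjusted by the Benjamini-Hochberg method over all 41012 probes, was under 0.05. Among the 17 member probes, 3 were higher and 5 lower at T1 than at T0 (47.1% called, against 45% of all probes, 19.6% higher and 25.4% lower). The T2 counts were 4 higher and 4 lower (47.1%, against 40.6% of all probes, 18.1% higher and 22.5% lower). The T4 counts were 8 higher and 4 lower (70.6%, against 39.1%, 17.9% higher and 21.2% lower), and the T8 counts 7 higher and 5 lower (70.6%, against 40.5%, 18.5% higher and 22% lower). At T1 and T2 the share called lay near that of the whole array. The median difference of the member probes was -0.041, 0.018, 0.58 and 0.40 at T1, T2, T4 and T8, beside -0.093, -0.053, -0.056 and -0.043 over all probes. The Ntrk2 probes are part of these counts, and the 4 comparisons share the T0 arrays. The T8 count also holds Gdnf probe A_44_P500961, at background on all arrays, and genes with several probes count more than once. Because the genes were chosen with the injury differences in view, no such share is a test of the family. In tissue RNA, fewer cells of a type and less RNA per cell cannot be told apart. Below, rose and fell are used of called probes.

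**Figure D1:**
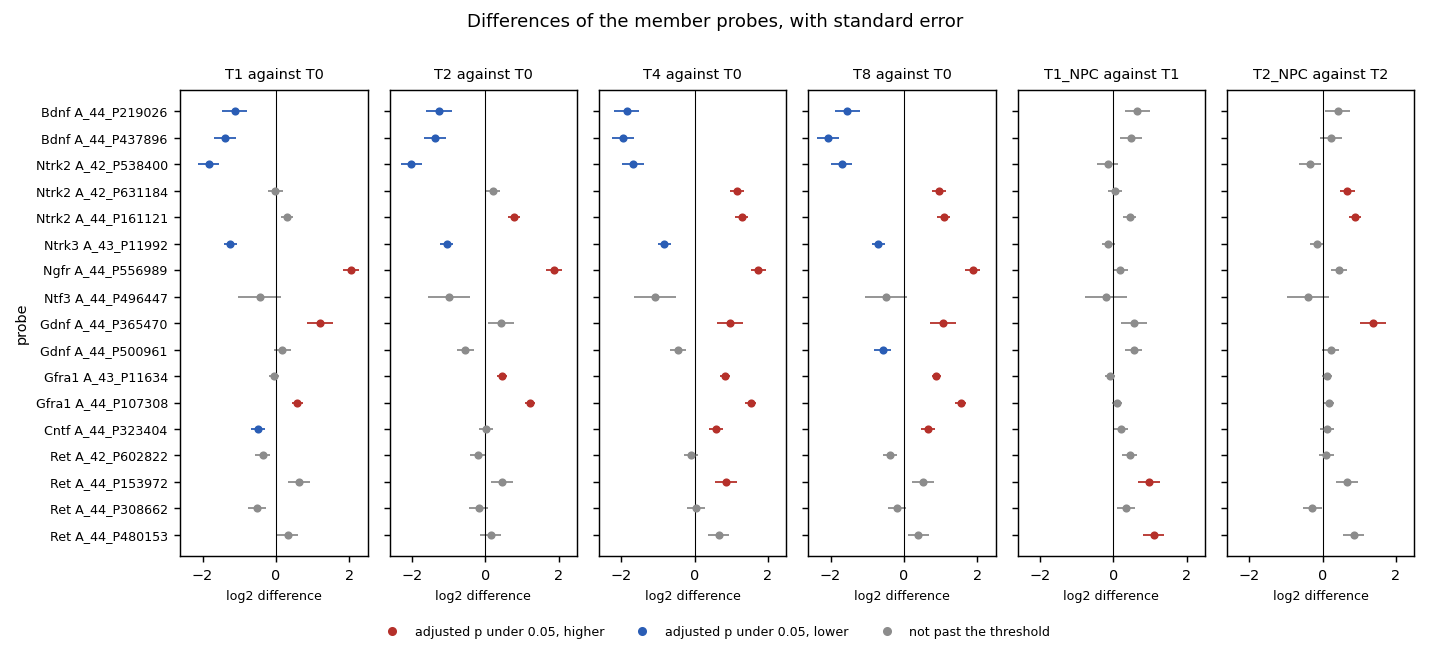
Log2 difference (horizontal axis) of each of the 17 member probes (vertical axis) in 4 comparisons with T0 and in the transplantation comparisons; points are limma estimates, bars are 1 standard error, and colour marks an adjusted p under 0.05. The colours of the Ntrk2 probes are a description and not a test, because the Ntrk2 differences were part of the choice of genes. Bdnf, the Ntrk2 variant 1 probe and Ntrk3 lie left of 0 at all 4 times and Ngfr lies to the right, whereas the other Ntrk2 probes and both Gfra1 probes move to the right from T1 to T4.

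Bdnf, the ligand of TrkB, fell after injury and was lower at all 4 times on both of its probes. Probe A_44_P437896, read from 10 spots, gave 6.79, 6.76, 6.64 and 6.70 in T0 animals, 5.26, 5.31, 5.93 and 4.83 in T1 animals, 5.13, 5.50, 5.43 and 5.35 in T2 animals, 3.89, 4.93, 4.98 and 5.34 in T4 animals and 4.03, 4.14, 4.98 and 5.45 in T8 animals. Every injured array lay below every T0 array, and the injured arrays differed more among themselves, with SDs of 0.45 at T1 and 0.68 at T8 against 0.068 at T0 (n = 4 each). The fall was 2.62-fold at T1 (log2 difference -1.39, SE 0.30, adjusted p = 0.000509) and 4.21-fold at T8 (-2.07, SE 0.30, adjusted p = 5.73e-06). Probe A_44_P219026, from 1 spot, gave 6.76, 6.58, 6.99 and 6.73 in T0 animals, 5.69, 5.47, 6.10 and 5.28 in T1 animals, 5.24, 5.61, 5.56 and 5.62 in T2 animals, 3.96, 5.04, 5.33 and 5.32 in T4 animals and 4.39, 4.70, 5.32 and 6.50 in T8 animals. Again no injured array reached the T0 range, although T8 replicate 4 lay just below it. The differences from T0 were -1.13, -1.26, -1.85 and -1.54 at the 4 times (SE 0.34, adjusted p 0.000132 to 0.00929). T8 differed from T1 by -0.68 on A_44_P437896 and -0.41 on A_44_P219026, and neither difference was called (adjusted p = 0.178 and 0.566). Within session 1, with 1 T1 array, the Bdnf differences at T1 were -1.45 and -1.19, and within session 2 they were -1.38 (called) and -1.03 (not called).

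Ntf3, which encodes NT-3, was at the limit of detection; apart from it and 1 Gdnf probe, the other 15 member probes were well above background on all 28 arrays. The single probe A_44_P496447 was well above background on 3 of 4 T0 arrays, 2 T1 arrays, 1 T2 array, 0 T4 arrays and 2 T8 arrays. It gave 4.77, 4.24, 4.46 and 3.81 at T0 and 2.67, 3.17, 3.56 and 3.57 at T4, and the T4 arrays, all at background, lay below the T0 arrays. No comparison was called (adjusted p = 0.15 for T4 against T0), and a change could not be resolved at this signal.

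Ntrk2 gave opposite pictures depending on the probe. The variant 1 probe A_42_P538400, from 10 spots, gave 14.71, 14.65, 14.50 and 14.56 in T0 animals, 13.21, 12.27, 13.49 and 12.11 in T1 animals, 12.29, 12.99, 12.90 and 12.17 in T2 animals, 12.49, 12.69, 13.28 and 13.25 in T4 animals and 12.86, 12.89, 12.86 and 13.03 in T8 animals. All 16 injured arrays lay more than 1 log2 unit below the lowest T0 array. The group differences from T0 were -1.84, -2.02, -1.67 and -1.70 (SE 0.29), or 3.58-, 4.05-, 3.19- and 3.24-fold lower. The variant 2 probe A_42_P631184 gave 11.43, 11.87, 11.22 and 12.32 in T0 animals, 11.69, 11.69, 11.46 and 11.95 in T1 animals, 11.67, 11.89, 11.88 and 12.20 in T2 animals, 12.99, 13.19, 12.86 and 12.41 in T4 animals and 12.77, 12.41, 12.85 and 12.63 in T8 animals. Its T1 and T2 arrays lay within the T0 range, and its T4 and T8 arrays lay above it. The differences were -0.014, 0.20, 1.15 and 0.96 (SE 0.20). The common probe A_44_P161121 gave 10.40, 10.61, 10.48 and 10.89 in T0 animals, 10.84, 11.13, 10.43 and 11.19 in T1 animals, 11.30, 11.52, 11.42 and 11.28 in T2 animals, 11.97, 12.19, 11.93 and 11.41 in T4 animals and 11.77, 11.54, 11.76 and 11.62 in T8 animals. It overlapped with T0 at T1 alone and was higher on every array from T2 on, by 0.79, 1.28 and 1.08 at T2, T4 and T8 (SE 0.17). The 3 probes were on the same 28 arrays. Split by session, these are still the arrays behind the choice of Ntrk2, so the session values are description only. In session 2 the T4 differences were -1.78 for the variant 1 probe, 0.92 for the variant 2 probe and 1.28 for the common probe, and in session 1, with 1 T4 array, they were -1.35, 1.08 and 0.97. When all probes of a gene name were averaged, Ntrk2 differed from T0 by -0.52, -0.34, 0.25 and 0.11 at the 4 times.

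**Figure D2:**
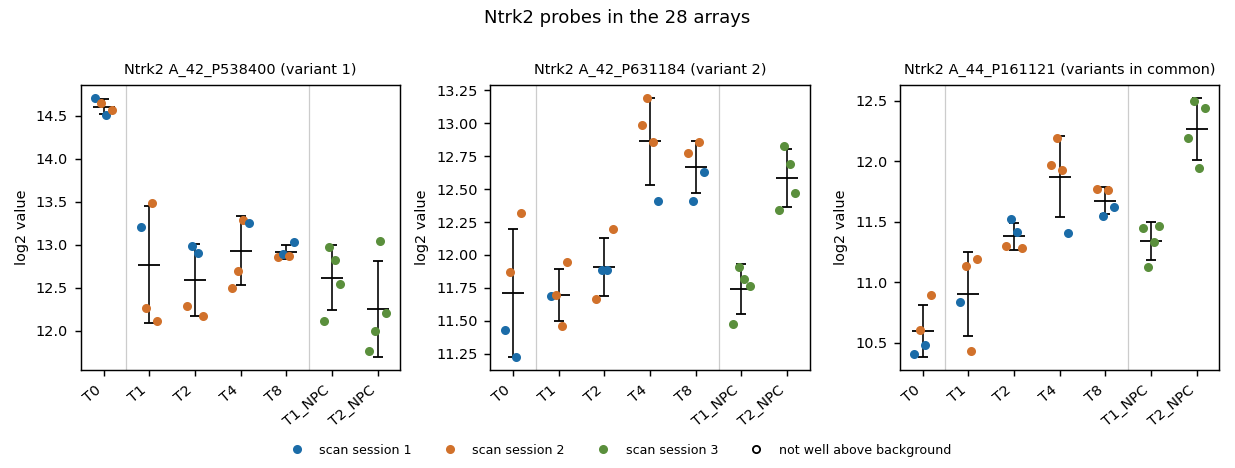
Log2 value (vertical axis) of the 3 Ntrk2 probes in each array of the 7 groups (horizontal axis); points are arrays coloured by scan session, bars the group mean ± SD (n = 4), and the vertical scales differ. The variant 1 probe is highest in the T0 arrays (14.50 to 14.71), whereas the other probes are highest in T4, T8 and T2_NPC arrays.

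Between T1 and T8 the Ntrk2 probes also parted. The variant 2 probe was higher at T8 by 0.97 (SE 0.20) and the common probe by 0.78 (SE 0.17), both without overlap, while the variant 1 probe differed by 0.14 (SE 0.29) with overlapping groups. In this comparison 5 member probes were higher and 1 lower, 35.3% called against 10.1% of all probes (5.53% higher and 4.6% lower). The lower probe was Gdnf A_44_P500961, at background on all arrays. The higher probes include the Ntrk2 variant 2 and common probes, so this share is not a test of the family. Between neighbouring times few members moved: 1 of 17 was called from T1 to T2 (5.88%, against 1.38% of all probes), and limma called 0 from T2 to T4 (0.0707% of all probes) and 0 from T4 to T8 (0.0878%), where 5 and 0 member probes had an unadjusted p under 0.05.

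Ntrk3, the receptor of NT-3, fell after injury on its single probe A_43_P11992. The arrays gave 13.67, 13.70, 13.47 and 13.67 in T0 animals, 12.65, 12.09, 12.79 and 12.01 in T1 animals, 12.56, 12.83, 12.69 and 12.25 in T2 animals, 12.64, 12.62, 12.94 and 12.997 in T4 animals and 12.96, 12.92, 12.91 and 12.91 in T8 animals. No injured array reached the T0 range. The difference from T0 was -1.24 at T1 (SE 0.18, adjusted p = 3.98e-06) and -0.70 at T8 (adjusted p = 0.00241), 2.37-fold and 1.63-fold lower. The T8 arrays lay above all T1 arrays, a difference of 0.54 with an adjusted p of 0.0541, just outside the threshold; it passed with the time-course arrays alone (adjusted p = 0.0383) and without T1 replicate 1 or T1 replicate 3 (adjusted p = 0.0381 and 0.017).

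Ngfr, the p75 receptor, rose after injury. Its probe A_44_P556989, from 10 spots, gave 8.998, 9.48, 8.64 and 9.53 in T0 animals, 11.06, 11.38, 11.07 and 11.37 in T1 animals, 10.99, 10.65, 10.97 and 11.56 in T2 animals, 10.69, 10.96, 10.87 and 11.08 in T4 animals and 11.08, 10.73, 11.27 and 11.05 in T8 animals. The injured groups did not overlap with T0 but overlapped with each other. The rise was 4.16-fold at T1 (log2 difference 2.06, SE 0.22, adjusted p = 4.72e-08) and 3.66-fold at T8 (1.87, adjusted p = 2.59e-07). The T0 arrays of session 1 (replicates 1 and 3) were below those of session 2, and the T1 difference was 2.24 within session 1, from 1 T1 array, and 1.77 within session 2, where it was called.

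**Figure D3:**
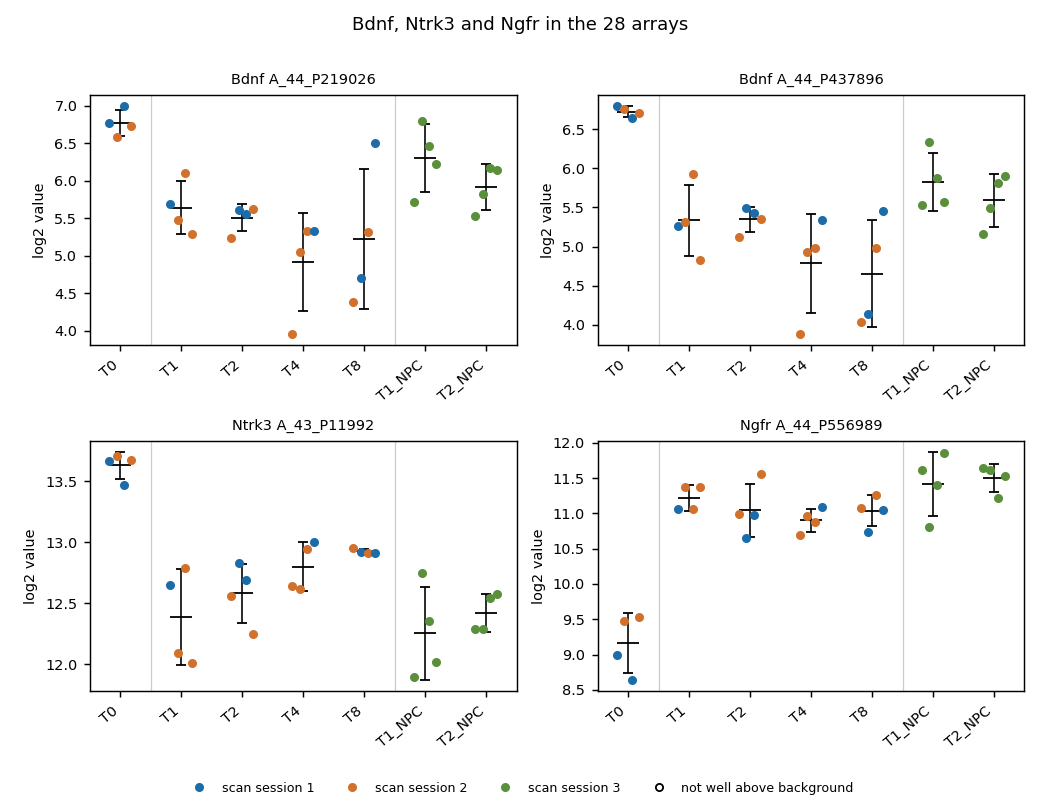
Log2 value (vertical axis) of both Bdnf probes, Ntrk3 and Ngfr in each array of the 7 groups (horizontal axis); points are arrays coloured by scan session and bars the mean ± SD (n = 4). Every injured array lies below T0 for both Bdnf probes and Ntrk3 in the time course, and above T0 for Ngfr.

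The levels of cell type markers moved in the same comparisons. Of 19 neuron probes (Snap25, Syt1, Nefl and others), all 19 were lower at each of the 4 times, with a median difference of -1.62 at T1 and -1.71 at T8; their mean level per array ran from 11.47 to 11.66 at T0 and from 9.39 to 10.34 at T1. Of 6 motor neuron probes, 4, 5, 6 and 4 were lower at T1, T2, T4 and T8 and none higher. These lists fell beside Bdnf, Ntrk3 and the Ntrk2 variant 1 probe, and their part in those results was not tested. Of 10 Schwann cell probes (Prx, Egr2, Sox10 and others), 6 were higher at each time and 3, 1, 2 and 3 lower, and their mean level per array ran from 9.17 to 9.43 at T0, from 10.23 to 10.83 at T1 and from 11.43 to 11.54 at T4. Of 11 fibroblast probes, 11, 11, 10 and 11 were higher, and of 18 microglia and macrophage probes, 17 were higher at each time. These rose beside Ngfr; their part in its rise was not tested. Of 15 astrocyte probes, 7 were lower and 1 higher at T1, 1 lower and 2 higher at T8, and 8 were higher and 0 lower at T8 than at T1 (median difference 0.62), beside the Ntrk2 variant 2 and common probes, both Gfra1 probes and Cntf, which were also higher at T8 than at T1; between the same times 4 of 10 Schwann cell probes were higher and 0 lower, 5 of 11 fibroblast and 4 of 18 microglia and macrophage probes were lower and 0 higher, and the part of these lists was not tested. Of 12 primary sensory neuron probes, 5 were lower at each time and 1, 1, 3 and 2 higher at T1, T2, T4 and T8. Of the remaining lists, 12, 11, 8 and 11 of 15 oligodendrocyte probes were lower and 0 higher at T1, T2, T4 and T8. At T1, 7 of 7 T cell probes were higher, 4 of 8 endothelial probes were higher and 1 lower, 2 of 4 oligodendrocyte precursor probes were higher and 1 lower, and 2 of 7 skeletal muscle probes were higher and 2 lower. Of 7 ependyma and progenitor probes, 3, 5, 5 and 5 were higher and 2, 0, 0 and 1 lower at T1, T2, T4 and T8, with median differences of 0.24, 0.83, 1.21 and 1.19; their part in the later differences of Gfra1, Ntrk2 and Cntf was not tested.

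**Figure D4:**
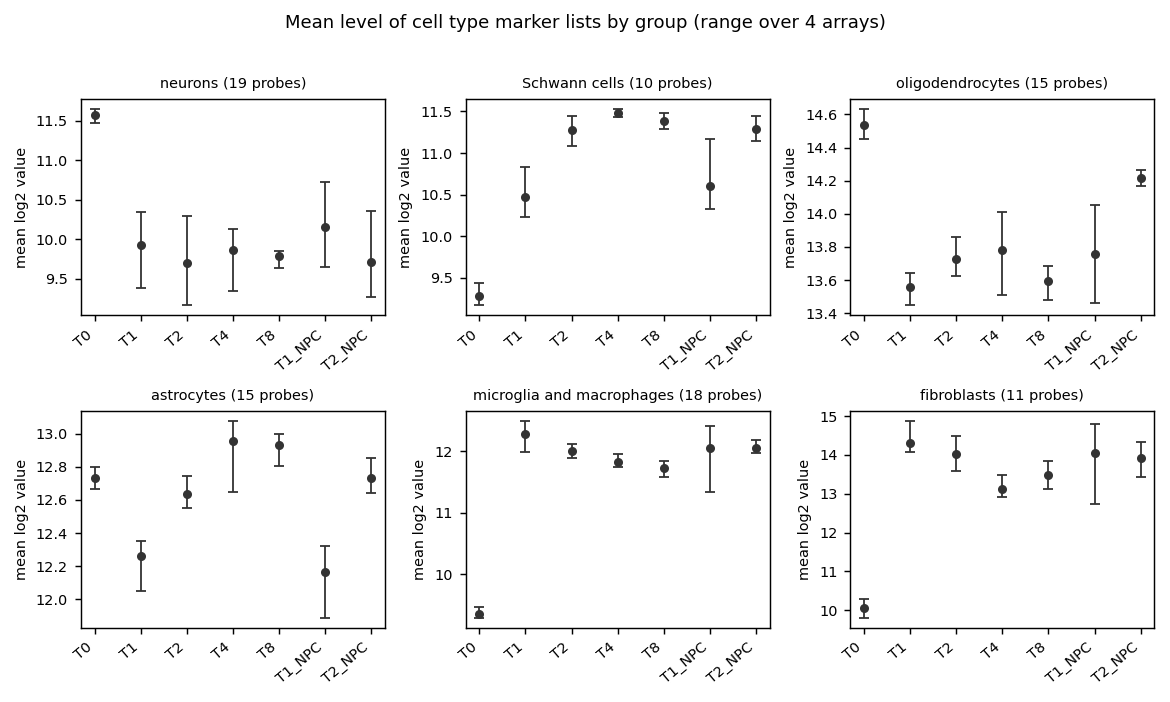
Mean log2 value over the probes of 6 cell type marker lists (vertical axis) in the 7 groups (horizontal axis); points are group means and bars run from the lowest to the highest of 4 arrays. Neuron markers are highest at T0 (11.47 to 11.66), and microglia, fibroblast and Schwann cell markers are lowest there.

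Gdnf was read by 2 probes at very different levels, with T0 means of 14.01 for A_44_P365470 and 2.34 for A_44_P500961. Only 4.25% of all probes had a T0 mean above that of A_44_P365470. Which of the 2 probes reads Gdnf RNA was not tested. Probe A_44_P500961, from 10 spots, was not well above background on any of the 28 arrays, so it gives no fold change; its calls at T8 against T0 (adjusted p = 0.0489) and T8 against T1 (adjusted p = 0.0371) are differences between values at background. Probe A_44_P365470 gave 12.89, 14.61, 13.49 and 15.04 in T0 animals, 14.77, 15.41, 15.02 and 15.57 in T1 animals, 13.997, 14.68, 14.17 and 14.93 in T2 animals, 15.15, 15.39, 15.16 and 14.16 in T4 animals and 15.61, 14.38, 14.96 and 15.30 in T8 animals. The T0 arrays spread over more than 2 log2 units (SD 0.99, n = 4), and every injured group overlapped with them. The probe was called higher at T1 (1.19, SE 0.35, adjusted p = 0.00815), T4 (0.96, adjusted p = 0.0343) and T8 (1.06, adjusted p = 0.0195) but not at T2 (0.44, adjusted p = 0.357). These calls rested on single arrays: without T0 replicate 1 the differences were 0.82, 0.59 and 0.69 at T1, T4 and T8 and none was called. The T4 call was also lost without T0 replicate 3 or T4 replicate 1, 2 or 3 (adjusted p = 0.0786 to 0.116), and the T8 call without T0 replicate 3 or T8 replicate 1 or 4 (adjusted p = 0.0522 to 0.0754). The T0 arrays of session 1 averaged 13.19 and those of session 2 averaged 14.82, and the T1 difference was 1.58 within session 1, from 1 T1 array, and 0.51 within session 2, where it was not called. The probe lies near the transcript start and 73.3% of its bases are G or C, against 35% to 51.7% for the other member probes. Over the other 100 probes at least as rich in G and C, a set formed after the Gdnf values were seen, the median differences were 0.54, 0.22, 0.45 and 0.49 at the successive times, with 40%, 6%, 30% and 39% called higher against 19.6%, 18.1%, 17.9% and 18.5% of all probes, and at T0 the session 2 arrays exceeded the session 1 arrays by a median of 0.47. The part of base composition in the Gdnf values was not tested.

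Gfra1, the co-receptor that binds GDNF, rose with time. Probe A_44_P107308 gave 8.73, 8.67, 8.44 and 8.72 in T0 animals, 9.04, 9.40, 9.05 and 9.41 in T1 animals, 9.92, 9.65, 9.80 and 10.07 in T2 animals, 10.18, 10.29, 10.30 and 9.91 in T4 animals and 10.32, 9.96, 10.33 and 10.12 in T8 animals. No injured array overlapped with T0, and the T2 arrays lay above the T1 arrays. The rise from T0 was 1.50-fold at T1 (0.58, SE 0.14, adjusted p = 0.00196), 2.33-fold at T2, 2.88-fold at T4 and 2.91-fold at T8 (1.54, adjusted p = 1.19e-08). Probe A_43_P11634 gave 13.08, 13.33, 13.04 and 13.22 in T0 animals, 13.08, 13.02, 13.25 and 13.16 in T1 animals, 13.81, 13.66, 13.71 and 13.34 in T2 animals, 14.03, 13.97, 14.08 and 13.89 in T4 animals and 14.01, 13.98, 14.18 and 14.04 in T8 animals. It overlapped with T0 at T1 (-0.041, adjusted p = 0.846) and lay above it later, by 0.46, 0.83 and 0.89 at T2, T4 and T8 (adjusted p = 0.00769, 3.21e-05 and 1.09e-05). From T1 to T8 the probes rose by 0.96 and 0.93 (adjusted p = 6.87e-05 and 4.69e-05). The step from T1 to T2 was called for A_44_P107308 (0.64, adjusted p = 0.0244) and not for A_43_P11634 (0.50, adjusted p = 0.0609); the call was lost without T1 replicate 1 or without T2 replicate 1, 3 or 4, where adjusted p ran from 0.0553 to 0.0872.

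Ret, the kinase of the GDNF receptor, gave 1 call after injury. Of its 4 probes, only A_44_P153972 at T4 was called (0.86, SE 0.30, adjusted p = 0.0255). That probe, listed for isoform RET9, gave 7.27, 8.06, 7.25 and 8.43 at T0 and 8.77, 8.88, 8.91 and 7.88 at T4, overlapping groups in which the session 1 arrays (T0 replicates 1 and 3, T4 replicate 4) were the lowest. The call was lost on leaving out any of T0 replicates 1 and 3 and T4 replicates 1, 2 and 3 (adjusted p = 0.0639 to 0.0988). A_44_P480153, described as variant 1 and matched to 2 RefSeq transcripts, differed by 0.15 to 0.66 without a call. Probes A_42_P602822 (variant 2) and A_44_P308662 (variant 1) differed from T0 by -0.38 to -0.099 and by -0.52 to 0.034.

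Cntf, the ciliary factor, was lower at T1 and higher later on its probe A_44_P323404 (10 spots). The arrays gave 12.09, 12.09, 12.22 and 11.71 in T0 animals, 11.77, 11.23, 11.64 and 11.52 in T1 animals, 12.18, 12.11, 12.002 and 11.88 in T2 animals, 12.67, 12.56, 12.69 and 12.50 in T4 animals and 12.47, 12.95, 12.84 and 12.51 in T8 animals. The T1 arrays overlapped with T0, the T2 arrays lay among them, and the T4 and T8 arrays lay above every T0 array. Against T0, T1 differed by -0.49 (SE 0.18, adjusted p = 0.0346), T2 by 0.018 (adjusted p = 0.96), T4 by 0.58 (adjusted p = 0.0151) and T8 by 0.66 (adjusted p = 0.00543). The rise from T1 to T8 was 2.22-fold (1.15, SE 0.18, adjusted p = 0.000144), 0.96 within session 1, from 1 T1 array, and 1.19 within session 2. The T1 fall lost its call without T0 replicate 1, 2 or 3 or T1 replicate 2 or 4 (adjusted p = 0.0665 to 0.128), and the T4 rise lost it without T0 replicate 4 (adjusted p = 0.0603).

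**Figure D5:**
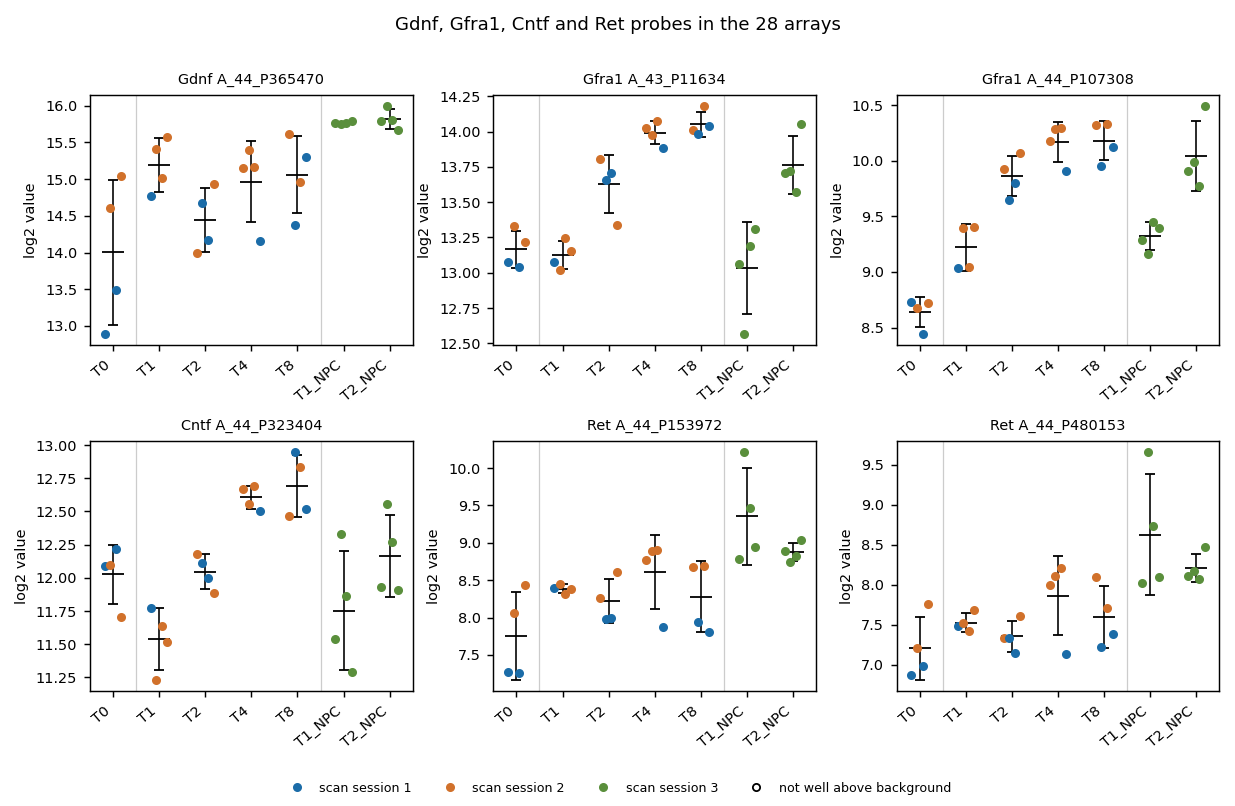
Log2 value (vertical axis) of a Gdnf probe, both Gfra1 probes, Cntf and 2 Ret probes in each array of the 7 groups (horizontal axis); points are arrays coloured by scan session and bars the mean ± SD (n = 4). The Gfra1 probes and Cntf are highest at T4 and T8, and the Gdnf probe spreads from 12.89 to 15.04 within T0.

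Transplantation was compared with injury alone at the same time. In T1_NPC against T1, 2 of 17 member probes were higher and 0 lower (11.8% called, against 12.5% of all probes, 5.83% higher and 6.69% lower), and in T2_NPC against T2, 3 were higher and 0 lower (17.6%, against 10.6%, 5.31% higher and 5.26% lower). The median member difference was 0.36 and 0.23, beside -0.0076 and -0.025 over all probes. All values here carry the slide and session of the transplanted groups. The T2_NPC count includes Ntrk2 probes, so its share is not a test of the family.

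At T1_NPC the called probes were of Ret. A_44_P480153 gave 7.48, 7.52, 7.42 and 7.69 at T1 and 8.02, 9.65, 8.73 and 8.10 at T1_NPC, and A_44_P153972 gave 8.39, 8.45, 8.31 and 8.39 and 8.79, 10.21, 9.47 and 8.94. All 4 transplanted arrays lay above the T1 arrays, with replicate 2 highest on both probes. The differences were 1.10 (SE 0.28, adjusted p = 0.0132) and 0.97 (SE 0.30, adjusted p = 0.0356). Without T1_NPC replicate 2 they were 0.76 and 0.68 and neither was called (adjusted p = 0.0575 and 0.15), and A_44_P153972 also lost its call without any one T1 array or T1_NPC replicate 3 (adjusted p = 0.0617 to 0.0777). With only the compared groups in the fit neither was called (adjusted p = 0.126 and 0.119). The other Ret probes, A_42_P602822 and A_44_P308662, overlapped between the groups, with differences of 0.45 and 0.36. At T2_NPC both A_44_P480153 and A_44_P153972 lay above all T2 arrays: A_44_P480153 gave 8.11, 8.18, 8.08 and 8.47 against 7.34, 7.34, 7.14 and 7.60 at T2 (0.85, adjusted p = 0.0557), and A_44_P153972 gave 8.89, 8.75, 8.83 and 9.04 against 8.26, 7.98, 7.998 and 8.61 (0.66, adjusted p = 0.163). Neither was called, whereas both were with only the compared groups in the fit (adjusted p = 0.0158 and 0.0423) and with the undisputed arrays (0.00309 and 0.00164). The undisputed T2 arrays are replicates 2 and 3 alone, both of session 1. In these arrays A_44_P480153 averaged 7.24 and A_44_P153972 averaged 7.99, below 7.47 and 8.44 in the T2 arrays of session 2.

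At T2_NPC the called probes were Ntrk2 and Gdnf. Whether the transplanted groups also entered the choice of Ntrk2 is not known. Its adjusted p-values here are therefore given as a description. The common Ntrk2 probe A_44_P161121 gave 12.19, 12.50, 11.94 and 12.44 at T2_NPC, all above the T2 arrays, a rise of 1.85-fold (0.89, SE 0.17, adjusted p = 0.00161). The variant 2 probe A_42_P631184 gave 12.34, 12.83, 12.69 and 12.47, also without overlap, a rise of 1.60-fold (0.67, adjusted p = 0.0306), which was not called without T2 replicate 1, 2 or 3 or without T2_NPC replicate 2 or 3 (adjusted p = 0.0625 to 0.0997). The variant 1 probe A_42_P538400 gave 11.76, 11.99, 13.04 and 12.20 and overlapped with T2 (-0.34, adjusted p = 0.512). Gdnf probe A_44_P365470 gave 15.79, 15.99, 15.81 and 15.67 at T2_NPC, all above the T2 arrays. At T1_NPC it gave 15.76, 15.75, 15.77 and 15.79, all above the T1 arrays. The rise over T2 was 2.59-fold (1.37, SE 0.35, adjusted p = 0.0152, or 0.0561 without T2 replicate 1). The T1_NPC difference from T1 was 0.57 and was not called (adjusted p = 0.31). The other Gdnf probe, at background on all arrays, was called in neither T1_NPC nor T2_NPC (adjusted p = 0.109 and 0.592). Of the 100 probes at least as rich in G and C, 21% were called higher in T2_NPC than in T2, against 5.31% of all probes.

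Bdnf was not called in either transplantation comparison, with the means of the transplanted groups above those of injury alone. Probe A_44_P437896 gave 5.53, 6.33, 5.87 and 5.56 at T1_NPC (0.49 above T1, SE 0.30, adjusted p = 0.303) and 5.16, 5.49, 5.82 and 5.90 at T2_NPC (0.24 above T2, adjusted p = 0.679). Probe A_44_P219026 gave 5.72, 6.80, 6.46 and 6.23 and 5.53, 5.83, 6.17 and 6.14, with differences of 0.66 and 0.41 (adjusted p = 0.215 and 0.498). On both probes the transplanted groups overlapped with their injured counterparts. Ngfr (differences of 0.20 and 0.46), Ntrk3 (-0.13 and -0.16), Cntf (0.21 and 0.12) and the Gfra1 probes (-0.092 and 0.10 at T1_NPC, 0.13 and 0.18 at T2_NPC) were not called either. The difference between the effects of the early and later transplantation was called for 0 of 17 member probes by limma (1 at an unadjusted p under 0.05; 0.266% of all probes were called). Of the marker lists, 4 of 15 oligodendrocyte probes were higher in T2_NPC than in T2, 1 of 19 neuron probes was higher and 1 lower in T1_NPC than in T1, 3 of 18 microglia and macrophage probes were lower in T1_NPC than in T1, 2 were higher and 2 lower in T2_NPC than in T2, and 2 of 8 endothelial probes were higher in T2_NPC; their part in the transplantation differences was not tested.

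Other genes of these pathways were counted from lists. Over all probes, 19.6% were higher and 25.4% lower at T1, and 18.5% higher and 22% lower at T8, and the list counts stand beside these shares. Of 25 probes for other neurotrophin genes, 4 were higher and 11 lower at T1, and 3 higher and 9 lower at T8 (median difference -0.33 and -0.18). Ntf4, the other TrkB ligand, rose by 1.18 at T1 and at no later time (adjusted p = 6.09e-05) and was lower in T1_NPC than in T1 by 0.72 (adjusted p = 0.0261). Furin, a protease that cleaves neurotrophin precursors, rose by 1.91 at T1 and 1.08 at T8, whereas Sort1, which binds the precursors together with Ngfr, was called on 1 of 3 probes at T1 (0.67) and T4 (0.62) and on all 3 in T2_NPC against T2 (0.63 to 0.97).

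Of 13 probes for other GDNF family genes, 2 were higher and 6 lower at T1, and 5 higher and 3 lower at T8. Gfra3, the artemin co-receptor, was not called at T1 (0.46 and 0.22) and was higher at T2 (2.42 and 2.38), T4 (2.32 and 2.08) and T8 (2.60 and 2.56) on both probes; A_44_P151675 was well above background on 23 of the 28 arrays. Gfra2, the neurturin co-receptor, fell by 0.59 at T1 (adjusted p = 2.51e-05) and was not called later. Gdf15, a distant relative that acts through GFRAL and RET, was 5.73 higher at T1 and 5.30 at T8.

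Of 15 probes for CNTF and LIF family genes, 10 were higher and 1 lower at T1, and 10 higher and 2 lower at T8, with median differences of 1.08 and 1.01. Clcf1, a ligand of CNTFR, rose by 2.44 at T1 and 2.94 at T8 on probe A_44_P809374. Osm, which acts through IL6ST, was not well above background on any T0 array and was at least 2.20-fold higher at T1. Lif fell by 0.55 at T1 (adjusted p = 0.00459) and 0.49 at T8. The receptor subunits Cntfr (-0.85 at T1, adjusted p = 0.115) and Lifr (0.05, adjusted p = 0.876) were not called after injury; in T1_NPC against T1, Cntfr was 2.01 lower and Lifr 0.63 higher. Of 33 probes for Trk signalling genes, 8 were higher and 8 lower at T1, near the shares of all probes, and 3 higher and 8 lower at T8. Among them the adaptor Shc1 rose by 2.87 and 2.24 at T1, and Arc, an early gene induced by synaptic activity and BDNF, fell by 2.42 at T1 and 2.76 at T8. Of 18 probes for other trophic factors, 8 were higher and 6 lower at T1; Igf1 rose by 5.02 and 4.68, and Hgf, at background on all T0 arrays, was at least 3.14-fold higher.

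Genes whose probes followed a member most closely over the 28 arrays are given as a description: all arrays share the injury contrast and the scan sessions, and the pool was 14470 probes with a gene symbol that were well above background on every array. The Ntrk2 variant 1 probe went with Abcd2, Atp2b2 and Kcnj6 (Pearson r = 0.98 each), the variant 2 probe with Zbtb20, Chi3l1 and Slc25a34 (0.90, 0.89 and 0.89), and the common probe with Slc6a8, Slc27a3 and Ston2 (0.90, 0.90 and 0.89). Bdnf probe A_44_P437896 went with Sv2c, Pgam1 and Txndc13 (0.89, 0.89 and 0.88), and A_44_P219026 with Pgam1, Samd14 and Sv2c (0.84, 0.84 and 0.83). Ngfr went with Arhgap10, Lamb1 and Emilin1 (0.98, 0.97 and 0.97), Cntf with Rab3b, Kctd1 and Gstk1 (0.89, 0.88 and 0.88), and Gdnf probe A_44_P365470 with Gcn1l1, Zxdc and Usf2 (0.96, 0.96 and 0.94). Of the Ret probes, A_44_P480153 went with Bcar1, Cdig2 and Med13l (0.93, 0.91 and 0.91) and A_44_P153972 with Med13l, Cbfa2t2 and Bcar1 (0.92 each), whereas A_42_P602822 and A_44_P308662 shared none of their 3 genes with them and reached 0.81 and 0.82 at most.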

How the data were processed

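Spinal cord RNA was hybridized to single-dye (Cy3) Agilent rat arrays, 28 arrays in 7 groups of 4. The authors read the arrays with Agilent Feature Extraction, corrected the background by the Agilent method and normalized between arrays by quantiles; the deposited value table holds these values on a log2 scale, 1 column per array. The deposited scanner outputs hold spot intensities (processed signal, median signal and local background) that were not normalized between arrays. Spots were joined to gene names by feature number, control spots were left out, and spots of a probe were averaged.

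Each probe was fitted with limma 3.58.1 in R 4.3.3 on 7 group means, and 11 contrasts were tested two-sided with Benjamini-Hochberg adjustment over all 41012 probes (called at an adjusted p under 0.05). The pipeline was tested on simulated data. Alternatives used the scanner outputs instead of the value table, other scalings, filters, blocks and sample sets; normexp (offset 50) was run on the median spot signal, since the mean signal is not in all scanner outputs used here. A probe at background on every array of a group gives only a bound: the fold against the lowest signal well above background. No spot was saturated, and precision is limited by there being 4 arrays in a group.

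The members and lists were chosen with earlier results of these data known. All member probes are named. Of the other neurotrophic lists, the 3 probes with the largest called differences per list are named, with Ntf4, Sort1, Cntfr, Lif, Lifr, Gfra2 and Gfra3 whatever their values; some genes that this rule names are not reported here. For likeness, the 3 genes with the highest correlation per probe of Bdnf, Ntrk2, Ngfr, Gdnf, Cntf and Ret are named.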

Additional observations from a re-analysis of the deposited data

Results flagged for a closer look

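In 4 of 119 probe and group combinations of 4 arrays, the gap of the highest or lowest array to its nearest neighbour took more of the group's range than Dixon's critical value for 4 arrays allows; chance gives about 1 in 20. For Bdnf probe A_44_P219026, T2 replicate 1 was low (5.24, the nearest array 5.56), a gap of 0.848 of the range. For the Ntrk2 variant 1 probe A_42_P538400, T8 replicate 4 was high (13.03, the nearest 12.89; 0.835 of the range). For Ntrk3 probe A_43_P11992, T0 replicate 3 was low (13.47, the nearest 13.67; 0.845), and for Ret probe A_44_P153972, T4 replicate 4 was low (7.88, the nearest 8.77; 0.869).

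The effect of injury differed between times, by limma's test of the difference, for Gfra1 and Cntf. From T1 to T2, Gfra1 probe A_44_P107308 differed by 0.64. From T1 to T8, Gfra1 differed by 0.93 (A_43_P11634) and 0.96 (A_44_P107308), and Cntf by 1.15 (A_44_P323404). Ntrk2 was chosen for its behaviour after injury, so its differences from T1 to T8, 0.97 (A_42_P631184) and 0.78 (A_44_P161121), are given as a description with no test.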

How the results depend on the processing

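Counts of called probes are given for all probes and for the 17 member probes where they moved by more than 1.5 times. Under the samples that the scanner outputs were deposited with, limma called 0, 1, 0 and 0 of all probes at T1, T2, T4 and T8 against T0 (2755, 1839, 9654 and 5706 at an unadjusted p under 0.05), 0 for T2 against T1, T4 against T2, T8 against T4, T8 against T1 and T1_NPC, 58 for T2_NPC and 7 for the difference between the transplantation effects, with 0 member probes throughout. Reversed there were Cntf at T4 (-0.52), Gdnf A_44_P500961 at T8 (0.026) and T8 against T1 (0.068), Ret A_44_P153972 in T1_NPC (-0.036), Clcf1 at T2 (-0.072 and -0.37), Lifr in T1_NPC (-0.12), and, for T8 against T1, Igf1 (0.72 and 0.75), Hgf (0.30) and Furin (0.053). With the 12 undisputed arrays all-probe calls were 243 for T2 against T1, 117 for T4 against T2, 122 for T8 against T4, 1604 for T8 against T1 and 9211 for T2_NPC, and member calls 5, 7, 0, 1 and 6 for T1, T4, T2 against T1, T8 against T1 and T2_NPC; T1_NPC has no such array, and T1 and T4 have 1 each. With probes averaged by gene name, member calls were 7 at T4, 7 at T8, 2 for T2 against T1 and 4 for T1_NPC, and the single probes reversed for Ntrk2 (A_44_P161121 at T1, -0.52; A_42_P631184 and A_44_P161121 at T2, -0.34; A_42_P538400 at T4, T8 and T2_NPC, 0.25, 0.11 and 0.41) and Gdnf A_44_P500961 (T8, 0.24), since probes of opposite direction are averaged. Within session 1, with 1 T1 and 1 T4 array, all-probe calls were 11879 at T1, 9985 at T4, 88 for T2 against T1, 56 for T4 against T2, 55 for T8 against T4 and 677 for T8 against T1, and member calls 5, 7, 0 and 1 for T1, T4, T2 against T1 and T8 against T1. Within session 2 every array is disputed. There, all-probe calls were 258, 435 and 9 for the neighbouring times, and member calls 5 at T1 and 0 for T2 against T1.

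Requiring a 2-fold change left 8626, 7835, 7156 and 7660 of all probes at T1 to T8, 216 for T2 against T1, 14 for T4 against T2, 1506 for T8 against T1, 1792 for T1_NPC and 816 for T2_NPC, and member counts of 7 at T4, 7 at T8, 0 for T2 against T1, and 1 each for T8 against T1, T1_NPC and T2_NPC. For T4 against T2, all-probe calls were 57 with 75th percentile scaling, 55 with normexp, 53 without dim probes, 51 with trend and robust, 80 with the session block, 143 when only time-course arrays were fitted, and 0 with only the compared groups (3746 at an unadjusted p under 0.05). For T8 against T4 they were 124 with normexp, 60 without dim probes, 59 with the session block, 23 with the slide block and 2 with only the compared groups. For T2 against T1 they were 892 with the slide block, 1048 with the session block, 957 when only time-course arrays were fitted, and 131 with only the compared groups. T1_NPC had 8532 calls with 75th percentile scaling and 1447 with only the compared groups. The difference between the transplantation effects had 1917, 44, 66, 315 and 60 calls with 75th percentile scaling, normexp, trend and robust, the session block and only the compared groups. Member calls for T2 against T1 were 2, and for T4 against T2 were 1, with 75th percentile scaling, normexp, no dim probes, trend and robust, the slide block and the session block; the fit of the time course by itself gave 2 for T2 against T1. With 75th percentile scaling 1 member was called for the difference between the transplantation effects. With only the compared groups member calls were 0 for T2 against T1, 0 for T1_NPC and 5 for T2_NPC. The cause of these shifts was not tested. The 75th percentile scaling moved the median of all probes at T1 from -0.093 to -0.26 and turned the split of the other GDNF family probes at T4 from 5 higher and 4 lower to 5 and 6.

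Leaving out 1 array at a time, all-probe calls ran from 16211 to 18199 at T1, 14514 to 16677 at T2, 13964 to 15848 at T4, 14975 to 16245 at T8, 208 to 949 for T2 against T1, 3 to 89 for T4 against T2, 3 to 106 for T8 against T4, 2996 to 4029 for T8 against T1, 3531 to 5723 for T1_NPC, 2572 to 4466 for T2_NPC and 55 to 239 for the difference between the transplantation effects. Member calls ran from 6 to 10, 8 to 9, 10 to 13, 10 to 11, 0 to 1, 0 to 1, 0 to 0, 5 to 7, 0 to 3, 1 to 3 and 0 to 0 in the same order. The replicate numbers did not pair the arrays (same-number correlations from -0.35 to 0.31, with at most 3 of 4 pairs over 0.1), so the arrays share only a number. With the replicate block, all-probe calls were 10 for T4 against T2 and 16 for T8 against T4, and 1 member was called in T1_NPC; Gdnf A_44_P500961, at background, also lost its T8 call, and no other member call changed.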
